A study of Mus musculus with 2 samples.

Results

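The cells described here are blood vessel endothelial cells of mouse colorectal tumours, taken from droplet-based sequencing of RNA in single cells. They were chosen by unique molecular identifiers (UMIs), each of which stands for 1 captured transcript. Of 26710 cell barcodes in both libraries, 26153 held 200 genes or more with no more than 25% of UMIs from mitochondrial genes, and 671 of these met the rule. A member needed at least 4 UMIs summed over Pecam1, Cdh5, Kdr, Flt1, Plvap, Egfl7 and Emcn. It also had to hold fewer than 3 UMIs of the lymphatic genes Mmrn1, Reln and Ccl21a, fewer than 12 of the epithelial genes Epcam, Krt8, Krt18 and Cldn7, and 0 of the immune genes Cd3e, Cd79a and Csf3r. A member with at least 1 UMI of Selp or Ackr1 was counted as venous, which gave 118 venous cells and 553 other cells. These genes are described but support nothing, since they chose the cells.

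Tumours had been induced with azoxymethane and dextran sulphate sodium, a mutagen followed by a colitis-inducing agent. There was 1 library labelled STK25 wKO, which the study describes as a global knockout, and 1 library labelled WT, each from a pool of tumours dissociated with trypsin. Strain, age, sex, the length of treatment and the knockout allele are not given in the sources used here. The series text mentions a sort on mCherry signal, without saying which cells carried it, and a sort can set shares of cells. With 1 library per group, genotype and library cannot be told apart. No test was made. Intervals are exact 95% intervals, or for ratios of shares are combined from exact ones, and cover counting error only. Reads of 1 pool of tumours say nothing of the spread between mice.

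Blood endothelium lines arteries, capillaries and veins, and its cells differ along that axis. Arterial cells use Notch signalling and the gap junction proteins encoded by Gja4 and Gja5. Capillary cells carry out exchange, while postcapillary venules are where leukocytes leave the blood, held first by selectins and then by integrin ligands such as ICAM and MAdCAM proteins. In growing vessels, tip cells lead the sprout under VEGF and their neighbours are restrained by Notch. Inflammatory cytokines act on venules through NF-kB to raise selectins and adhesion molecules.

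The promoters of Sele, Madcam1, Glycam1 and Icam1 are shown because these genes were higher in venous than in other cells of both libraries, in the values given further on. Glycam1 was found in only 6 venous cells of the STK25 wKO library and 4 of the WT library, and Icam1 was found in other cells too. Each run is the 150 bases before the RefSeq gene start in GRCm38.p6, written from 5′ to 3′ on the strand of the gene. Capitals mark matches to an NF-kB consensus (Madcam1) or to the GAS motif TTCNNNGAA, a sequence bound by STAT factors (the other genes).
Sele, E-selectin, chr1:164048084-164048233, plus strand: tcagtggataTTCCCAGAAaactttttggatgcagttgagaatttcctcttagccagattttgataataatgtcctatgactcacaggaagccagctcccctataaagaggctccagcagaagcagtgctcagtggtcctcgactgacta
Madcam1, the mucosal addressin, chr10:79664409-79664558, plus strand: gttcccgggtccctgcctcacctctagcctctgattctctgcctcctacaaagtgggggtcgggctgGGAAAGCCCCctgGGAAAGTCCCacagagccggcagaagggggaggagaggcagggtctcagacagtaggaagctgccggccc
Glycam1, a mucin-like ligand of L-selectin, chr15:103565082-103565231, minus strand: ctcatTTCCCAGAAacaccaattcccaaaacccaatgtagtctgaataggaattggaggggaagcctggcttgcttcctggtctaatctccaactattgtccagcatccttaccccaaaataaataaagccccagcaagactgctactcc
Icam1, the integrin ligand ICAM, chr9:21015790-21015939, plus strand: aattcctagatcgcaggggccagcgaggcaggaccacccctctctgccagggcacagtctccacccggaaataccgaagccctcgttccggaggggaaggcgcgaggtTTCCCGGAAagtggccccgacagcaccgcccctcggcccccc

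The NF-kB consensus, GAS and the consensus of the interferon-stimulated response element were searched on both strands in the 250 bases before each gene start. Of 32851 promoters of 27025 gene symbols, 7.25% held the NF-kB consensus, 7.02% held GAS and 2.98% held the interferon element. These shares are per promoter, while a gene below was counted if any of its promoters matched, so the measures differ. Of the 15 genes with the largest venous excess in both libraries, 14 had a promoter in the table. The NF-kB consensus stood in 3 of these (Madcam1, Pde1c and Ubd), GAS in 4 (Glycam1, Pde1c, Rbfox1 and Sele) and the interferon element in 1 (Tll1). A match is a description of the letters only.

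The members carried the transcripts of endothelium that the rule did not use. A list of 26 other endothelial genes, among them Tie1, Ramp2, Ptprb, Sox18, Eng and Robo4, summed to 8784 CPM (UMIs per 1000000 UMIs of the group of cells) in members of the STK25 wKO library and 8129 CPM in members of the WT library, against 324 and 538 CPM in B cells of those libraries. At least 1 of these UMIs was held by 99.1% of members in each library. Tie1, an orphan receptor of endothelium, stood at 253 CPM in the STK25 wKO library and 248 CPM in the WT library, and no B cell had a UMI of it. The B cells were chosen to hold 0 UMIs of the endothelial rule genes, so low endothelial levels in them were partly set in advance. The rule genes named as markers were all present: Pecam1 at 1106 and 1074 CPM, Cdh5 at 554 and 378 CPM, Flt1 at 1638 and 1757 CPM, Plvap at 1439 and 1057 CPM and Emcn at 534 and 470 CPM in the STK25 wKO and WT libraries. The presence of these rule genes was set in advance by the choice of cells. By the 26 genes outside the rule, the label of blood endothelium fits the members as a whole, with the exceptions that follow.

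Transcripts of other cell types were present in members. Genes of lymphatic endothelium summed to 167 CPM in the STK25 wKO library and 324 CPM in the WT library, against 10837 and 12030 CPM in the 97 and 64 endothelial cells that the lymphatic condition alone removed, and 14 and 12 members held at least 2 UMIs of Prox1 or Lyve1. The fibroblast list summed to 635 and 796 CPM in members, against 21308 and 20885 CPM in fibroblasts, and the pericyte and smooth muscle list to 607 and 1016 CPM. The fibroblasts were chosen by UMIs of Dcn, Col3a1 and Col1a2, which are in the fibroblast list, so their high level was partly set in advance. Epithelial genes summed to 1920.5 and 1363 CPM and were found in 99.3% and 98.6% of members and in 99.4% and 97.3% of B cells, that is at background.

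Transcripts of immune cells differed between the libraries. The neutrophil list summed to 1500 CPM in members of the STK25 wKO library and 195 CPM in members of the WT library, with a UMI in 89.4% and 33.3% of members against 89.5% and 20.5% of B cells. The macrophage list summed to 895 and 462 CPM, with 83.6% and 40.6% of members and 84.9% and 40.2% of B cells. The T cell list ran the other way, at 24.8 CPM in the STK25 wKO library and 152 CPM in the WT library, with 5.97% and 22.4% of members and 13.95% and 26.8% of B cells. Median depths were 2605.5 and 2750 UMIs in members and 1760.5 and 1563.5 UMIs in B cells. Where a share in members is near that in B cells, it is read as background, and these lists are set beside each result they touch.

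**Figure D1:**
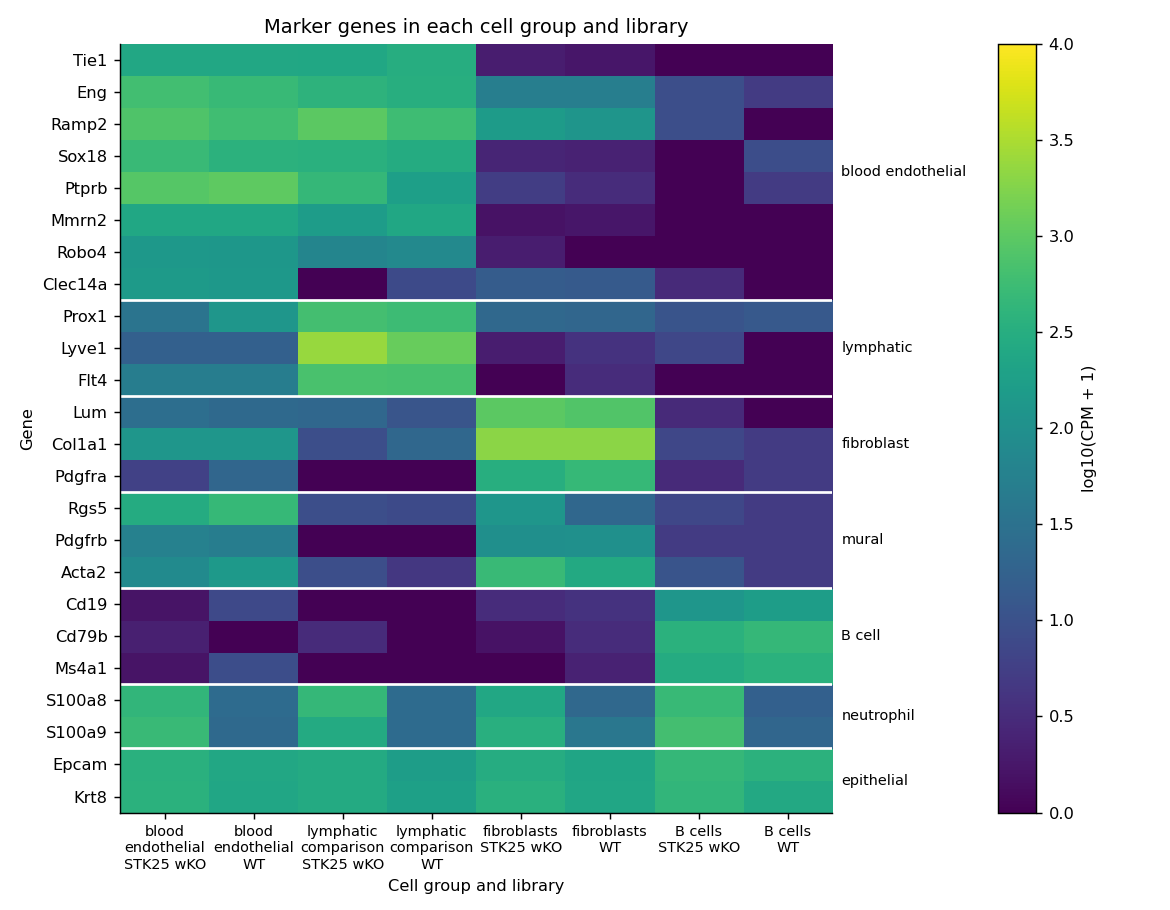
Levels of marker genes as log10(CPM + 1) in blood endothelial cells, lymphatic comparison cells, fibroblasts and B cells of each library, with genes in the vertical direction grouped by cell type. Blood endothelial genes are bright in blood endothelial cells and dark in B cells, and all but Clec14a are bright in lymphatic cells too, Prox1, Lyve1 and Flt4 are brightest in lymphatic cells, and S100a8 and S100a9 are bright in every group of the STK25 wKO library. Epcam and Krt8 are part of the rule, and Cd79b and Ms4a1 chose the B cells.

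Blood endothelial cells made up 452 of 13883 kept cells in the STK25 wKO library and 219 of 12270 in the WT library. These are 3.26% (2.97 to 3.56) and 1.78% (1.56 to 2.03), a ratio of 1.82 (1.55 to 2.15). Lymphatic endothelial cells were 0.699% and 0.522% of kept cells, a ratio of 1.34 (0.972 to 1.86). The median depth of all kept cells was 2091 UMIs in the STK25 wKO library and 1383 UMIs in the WT library, so depth moved with this difference. Among cells with at least 1000 UMIs the shares were 3.89% and 2.55%, a ratio of 1.52. With fewer than 4 epithelial UMIs allowed in place of 12 they were 1.94% and 1.45%, a ratio of 1.34, so the ratio depended on the epithelial limit.

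Members just inside the threshold were less certain than the rest. Cells with exactly 4 rule UMIs numbered 38 in the STK25 wKO library and 37 in the WT library, and the 26 other endothelial genes summed to 2531 and 1879 CPM in them. Cells with 3 rule UMIs, just outside, numbered 62 and 96 and had 1566 and 925 CPM. With 6 or more rule UMIs, 383 and 164 members had 9330 and 9236 CPM. At the epithelial limit there were 2 and 1 members with 11 UMIs, against 1 and 2 cells with 12 UMIs just outside. The libraries shared 230 barcode sequences, of which 7 in the STK25 wKO library and 4 in the WT library were members, and 0 were a member in both.

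**Figure D2:**
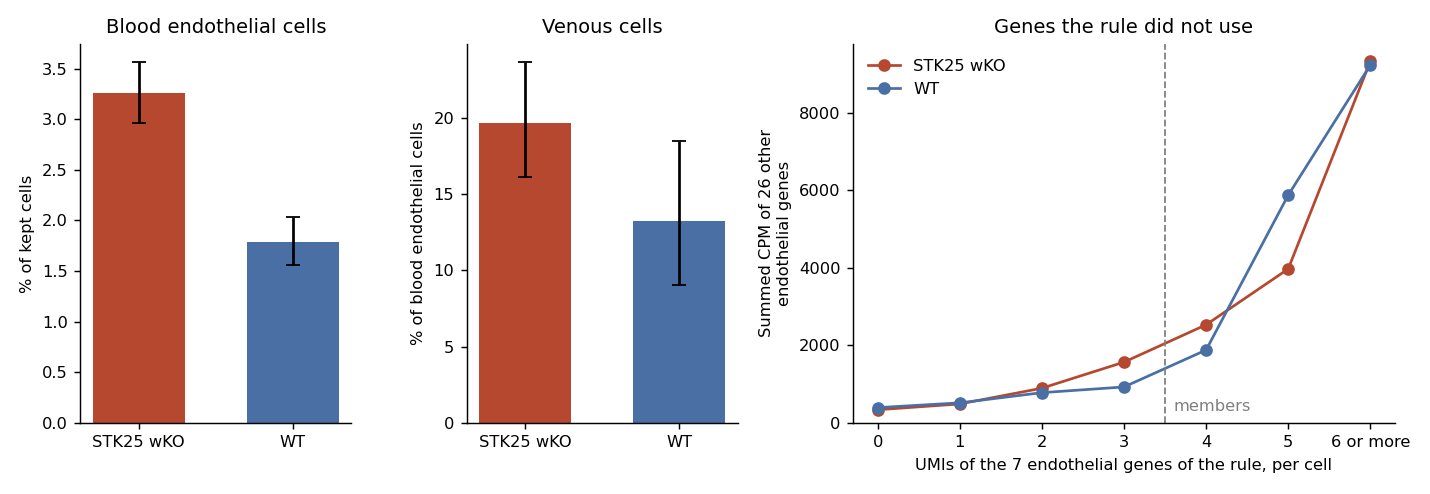
Left, blood endothelial cells as a percentage of kept cells, and centre, venous cells as a percentage of blood endothelial cells, in each library, with exact 95% binomial intervals as error bars. Right, summed CPM of 26 endothelial genes outside the rule in cells grouped by their UMIs of the 7 rule genes; members lie right of the dashed line, and the level climbs to 9330 CPM in the STK25 wKO library and 9236 CPM in the WT library at 6 or more UMIs.

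Stk25, the gene named in the labels, lies on chromosome 1 from 93619751 to 93658659 in GRCm38. Its 118 UMIs in members of the STK25 wKO library and 46 UMIs in members of the WT library gave 73.1 and 60.8 CPM, with the log2 ratio at 0.27 (−0.24 to 0.79). With each cell thinned to 1000 UMIs, 5.96% and 8.06% of members had a UMI of Stk25, against 5.45% and 7.07% of B cells. The knockout allele is not described, so these UMIs do not check the labels, and each library is named by its label.

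Venous cells numbered 89 of 452 members in the STK25 wKO library and 29 of 219 in the WT library, or 19.7% (16.1 to 23.7) and 13.2% (9.05 to 18.5), a ratio of 1.49 (1.01 to 2.27). Selp, the gene for P-selectin, marked 86 and 25 of them, Ackr1, the gene for an atypical chemokine receptor of venules, marked 34 and 15, and 31 and 11 held both. Depth moved with this share. Venous cells had a median of 3864 UMIs against 2401 UMIs in other cells of the STK25 wKO library, and 2867 against 2683 UMIs in the WT library. In the STK25 wKO library, venous cells were 8.63% of members under 2000 UMIs, 18.2% of members from 2000 to 4000 UMIs and 35.7% of deeper ones. In the WT library these shares were 16.7%, 10.1% and, with 9 of 60 cells, no higher in the deepest cells than in the shallowest. With every cell thinned to 1000 UMIs, and the venous genes read again, the venous share was 14.2% in the STK25 wKO library and 12.3% in the WT library, a ratio of 1.15.

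Among genes that hold leukocytes, Sele, Madcam1 and Icam1 were higher in venous cells of both libraries. Sele had 158 UMIs in 35 cells of the STK25 wKO library and 84 UMIs in 10 cells of the WT library, and every one of those cells was venous. This gave 338 CPM in venous cells and 0 in other cells of the STK25 wKO library, at least 129-fold higher against a floor of 3 counts over the other cells, and 759 CPM and 0 in the WT library, at least 164-fold higher. Madcam1 was at 332 CPM in venous and 3.49 CPM in other cells of the STK25 wKO library, a log2 ratio of 6.57 (5.19 to 8.47), and at 361 and 3.09 CPM in the WT library, where the other cells held 2 UMIs and the ratio was 6.87 (4.92 to 9.96). No B cell of either library had a UMI of Sele or Madcam1. Madcam1 was found in 18 and 12 members, of which 17 and 10 were venous.

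Icam1 was detected more widely and was also higher in venous cells. It stood at 553 CPM in venous and 103 CPM in other cells of the STK25 wKO library, a log2 ratio of 2.43 (2.11 to 2.75), and at 678 and 88.2 CPM in the WT library, a ratio of 2.94 (2.43 to 3.47). After thinning each cell to 1000 UMIs, 30.7% of venous and 7.18% of other cells of the STK25 wKO library had an Icam1 UMI, against 3.64% of B cells, and 41.4% and 6.04% in the WT library, against 7.07% of B cells. Other cells of the WT library were thus no higher than B cells by this measure. Whether the B cells made Icam1 themselves was not tested, so this does not set a background for it. Vcam1, another integrin ligand, differed between libraries, at 182 and 32.2 CPM in venous and other cells of the STK25 wKO library, a log2 ratio of 2.50 (1.92 to 3.10), and at 45.2 and 41.8 CPM in the WT library, a ratio of 0.11 (−1.62 to 1.51) on 5 venous UMIs.

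Of the genes with 50 UMIs or more in members and no less than 20 CPM in some group, 108 of 6979 (1.55%) were higher in venous cells in both libraries by a log2 ratio of at least 1 with 1 CPM added, and 275 (3.94%) were lower. Taken alone, the STK25 wKO library had 223 genes (3.2%) higher and 448 (6.42%) lower, and the smaller WT library 488 (6.99%) higher and 1349 (19.3%) lower. The median over all these genes was −0.01 in the STK25 wKO library and −0.11 in the WT library. For each gene the smaller of the 2 ratios was used, or 0 where their signs differed. The separation of venous and other cells rests on Selp and Ackr1, so neighbouring genes in the same cells are a description of these cells.

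Of the list of venous genes, 8 of 14 were past that fold on the higher side and 0 on the lower, with a median of 1.26. Lrg1, which encodes a secreted glycoprotein of venules, was at 855 CPM in venous and 113 CPM in other cells of the STK25 wKO library, a log2 ratio of 2.92 (2.63 to 3.21), and at 795 and 61.9 CPM in the WT library, a ratio of 3.68 (3.13 to 4.26). Vwf, which encodes von Willebrand factor, was at 640 and 198 CPM in the STK25 wKO library and 885 and 209 CPM in the WT library, ratios of 1.70 (1.44 to 1.95) and 2.08 (1.69 to 2.47). Nr2f2, the gene for the vein identity factor COUP-TFII, was at 239.9 and 73.2 CPM in venous and other cells of the STK25 wKO library and at 370.4 and 133 CPM in the WT library. The remaining genes past the fold were Sele, Madcam1, Il6st, Bgn and Flrt2, where Il6st encodes the receptor chain shared by cytokines of the interleukin-6 family.

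Of 22 measured genes of the inflammatory response list, 5 were higher in venous cells past the fold and 0 lower, with a list median of 0.22. Il1r1, the receptor for interleukin-1, was at 248 CPM in venous and 59.2 CPM in other cells of the STK25 wKO library, a log2 ratio of 2.07 (1.62 to 2.52), and at 759 and 74.3 CPM in the WT library, a ratio of 3.35 (2.83 to 3.90). Csf3, the gene for the neutrophil growth factor G-CSF, had 65 UMIs in 13 venous cells and 1 UMI in other cells of the STK25 wKO library, a ratio of 7.32 (4.79 to 12.65), and 58 UMIs in 6 venous cells and 2 UMIs in other cells of the WT library, a ratio of 7.40 (5.49 to 10.48). One venous cell held 34 of the 60 Csf3 UMIs of the WT library. Cxcl1, Cxcl9 and Cxcl10 were the other genes of the list past the fold. For Cxcl9, 228 of the 242 venous UMIs of the STK25 wKO library lay in 1 cell, and without members that held a Prox1 or Lyve1 UMI its log2 ratio there, with 1 CPM added, turned to −2.35.

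Further genes in the venous excess were spread over more cells. Tll1, which encodes a metalloprotease, had 102 UMIs in 33 venous cells and 22 UMIs in 16 other cells of the STK25 wKO library, and 45 UMIs in 12 venous and 23 UMIs in 17 other cells of the WT library, log2 ratios of 3.51 (2.84 to 4.25) and 3.51 (2.76 to 4.31). Slco2a1, a prostaglandin transporter, was at 668 CPM in venous and 226 CPM in other cells of the STK25 wKO library and at 1473 and 234 CPM in the WT library. Insr, the insulin receptor, was at 649 and 168 CPM in the STK25 wKO library and 994 and 212 CPM in the WT library.

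Arterial genes showed the reverse. Of 18 measured members of the arterial list, 8 were lower in venous cells past the fold in both libraries (Gja4, Gja5, Sema3g, Bmx, Hey1, Efnb2, Unc5b and Cxcl12) and 0 were higher, with a median of −0.91. Cxcl12, the gene for a chemokine made by arterial and stromal cells, was at 233 CPM in venous and 1149 CPM in other cells of the STK25 wKO library, a log2 ratio of −2.30 (−2.59 to −2.02), and at 72.3 and 971 CPM in the WT library, a ratio of −3.75 (−4.97 to −2.76). Gja4 had 16 UMIs in venous and 185 UMIs in other cells of the STK25 wKO library, or 34.3 and 161 CPM, a ratio of −2.23 (−3.07 to −1.50). It had 0 and 83 UMIs in the WT library, which is at least 4.74-fold lower in venous cells. Sema3g, a semaphorin gene of arteries, had 6 and 98 UMIs in the STK25 wKO library, a ratio of −2.73 (−4.21 to −1.56), and 0 and 60 UMIs in the WT library, at least 3.42-fold lower. The whole arterial list summed to 1870 and 3870 CPM in venous and other cells of the STK25 wKO library and to 1455 and 3876 CPM in the WT library. In fibroblasts it was as high, at 3942 and 3746 CPM in the STK25 wKO and WT libraries. The part of stromal RNA in these values was not tested.

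Counted per cell, at least 2 UMIs of Gja4, Gja5, Sema3g and Bmx together were held by 6 of 89 venous cells and 46 of 363 other cells (12.7%) of the STK25 wKO library, and by 0 of 29 venous and 36 of 190 other cells (18.9%) of the WT library. Venous cells were the deeper group in both libraries. The 29 venous cells of the WT library allow a share of up to 11.9% by the upper exact limit. Over all members these arterial cells were 11.5% in the STK25 wKO library and 16.4% in the WT library, cells with at least 2 UMIs of the capillary genes Car4, Cd36, Gpihbp1, Cd300lg and Btnl9 were 42.5% and 37.4%, and cells with at least 2 UMIs of the tip genes Apln, Esm1, Angpt2 and Pgf were 13.9% and 10.5%. The classes overlap and are ranges of a count: 15 of the 36 arterial cells of the WT library were also capillary by this rule.

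Other endothelial lists were more even between venous and other cells. Of 15 leukocyte adhesion genes, Sele, Icam1 and Madcam1 were higher in venous cells past the fold and Jam3 and Podxl lower, with a median of 0.11. Of 18 junction genes, 5 were lower (Jam3, Cgnl1, Gja4, Gja5 and Jup) and 0 higher, and of 13 Notch genes, Notch3, Jag2 and Hey1 were lower. Notch3 is also in the pericyte and smooth muscle list, where 4 of 8 measured genes were lower in venous cells past the fold and 0 higher. The part of pericyte RNA in the lower Notch3 was not tested. Of 21 basement membrane genes, Col15a1 was higher, at 936 CPM in venous and 429.5 CPM in other cells of the STK25 wKO library and at 885 and 418 CPM in the WT library, and Itga1 was lower. The 26 endothelial identity genes had 0 past the fold in either direction and a median of 0.07.

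**Figure D3:**
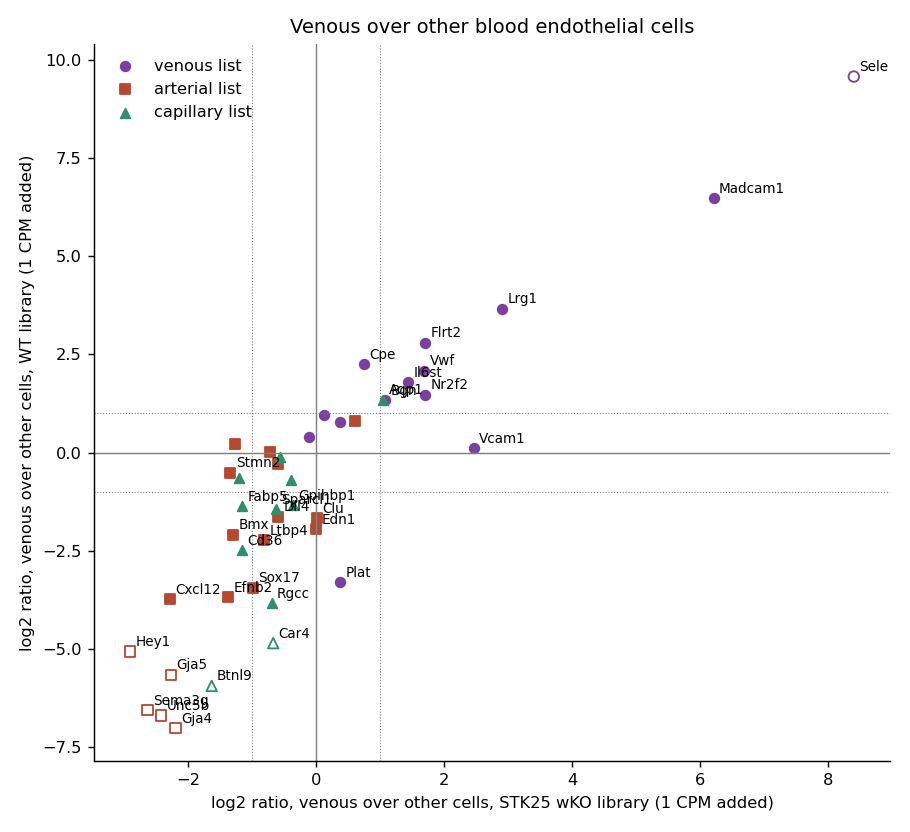
Log2 ratio of venous to other blood endothelial cells, with 1 CPM added, in the STK25 wKO library (horizontal axis) and the WT library (vertical axis), for genes of the venous, arterial and capillary lists that passed the filter. Dotted lines mark a log2 ratio of 1 in size, and open symbols are genes with 0 UMIs in one of the groups, whose place depends on the added 1 CPM and is no estimate of size. Sele, Madcam1 and Lrg1 lie at the upper right, and Cxcl12, Hey1 and Gja4 at the lower left.

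Capillary genes lay mostly below 0 in venous cells. Of 11 capillary genes, Cd36, Fabp5 and Btnl9 were lower past the fold and Aqp1 was higher, with a median of −0.64. Cd36, a fatty acid transporter, was at 152 CPM in venous and 343 CPM in other cells of the STK25 wKO library, a log2 ratio of −1.17 (−1.56 to −0.81), and at 54.2 and 308 CPM in the WT library, a ratio of −2.51 (−3.97 to −1.36). Aqp1, a water channel, was at 889 and 429 CPM in the STK25 wKO library, a ratio of 1.05 (0.86 to 1.24), and at 596 and 234 CPM in the WT library, a ratio of 1.35 (0.91 to 1.78). Of 6 class II histocompatibility genes, 3 were lower past the fold (H2-Aa, H2-Ab1 and H2-DMa), and B cells, which express these genes, had H2-Aa in 89.5% and 63.4% of cells. One cell held 405 of the 1050 class II UMIs of other cells of the WT library, and 1 held 291 of 1590 in the STK25 wKO library. Of the 361 class II UMIs of venous cells of the STK25 wKO library, 141 lay in 1 cell. For the class II gene Cd74, the cell with the most UMIs in each library was an other cell with only 4 rule UMIs. Whether RNA from outside the cells or these single cells had a part in the lower class II values was not tested.

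Some stromal genes had 0 UMIs in venous cells. Sfrp2 had 0 UMIs in venous and 51 UMIs in other cells of the STK25 wKO library, at least 6.92-fold lower in venous cells, and 0 and 26 UMIs in the WT library, at least 1.48-fold lower. Lum had 0 and 44 UMIs and 0 and 17 UMIs, and all of them came from 9 other cells of the STK25 wKO library and 6 of the WT library. Both genes are known from fibroblasts, and the fibroblast list as a whole summed to 319 CPM in venous and 763 CPM in other cells of the STK25 wKO library and to 316 and 879 CPM in the WT library. The pericyte and smooth muscle list summed to 392 and 694 CPM and to 54.2 and 1180 CPM. Their part in the genes lower in venous cells was not tested.

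**Figure D4:**
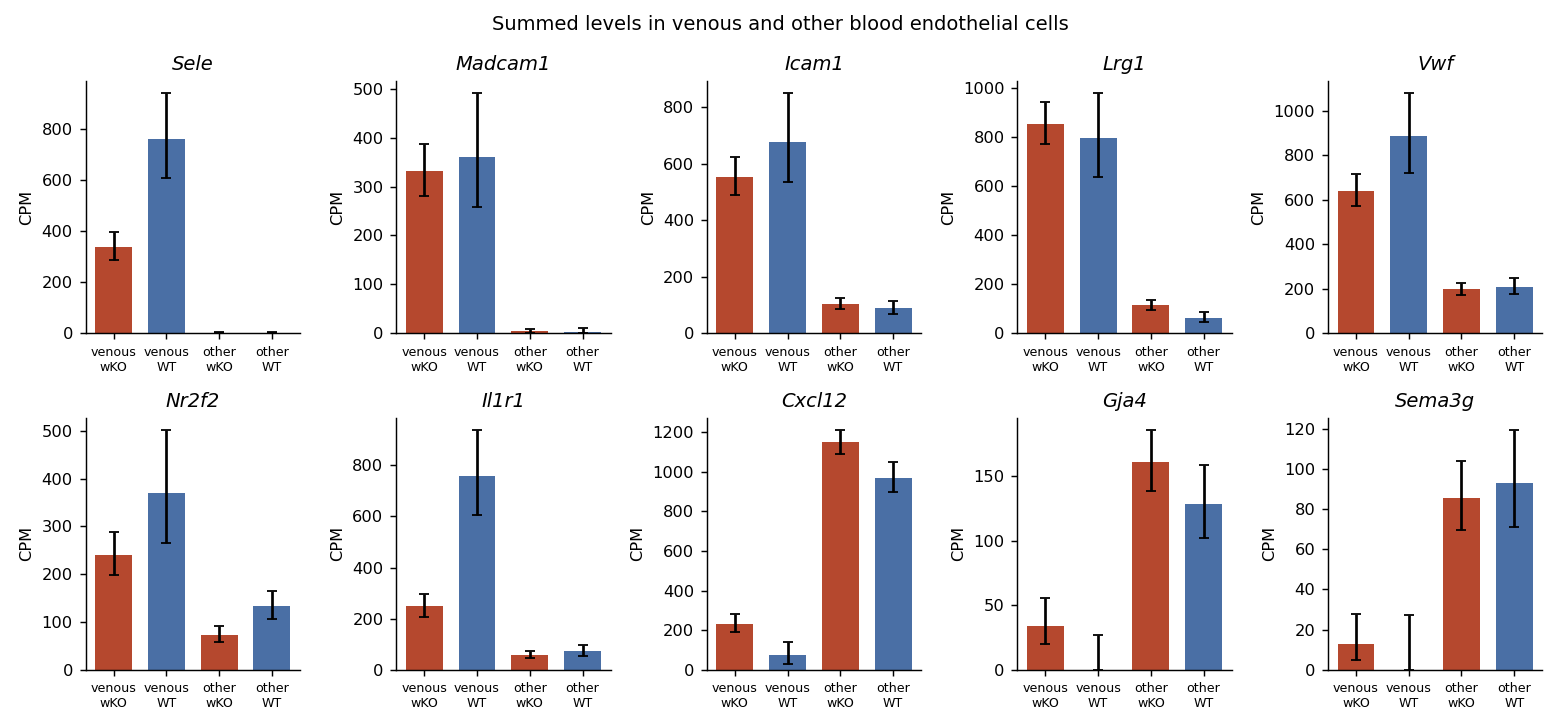
Summed CPM of 10 genes in venous and other blood endothelial cells of the STK25 wKO library (wKO) and the WT library, as bars from 0 with exact 95% Poisson intervals, where a bar at 0 UMIs has a line up to 3 counts. Sele is at 338 and 759 CPM in venous cells and 0 in other cells, while Cxcl12 is at 1149 and 971 CPM in other cells.

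Single cells carried much of some venous genes. One venous cell of the STK25 wKO library, with 28107 UMIs (6.02% of all venous UMIs there), held 228 of 282 Cxcl9 UMIs, 226 of 427 Ubd UMIs and 61 of 169 Cxcl10 UMIs. It had 205 UMIs of the rule genes and 2 UMIs of Lyve1. One venous cell of the WT library, with 13122 UMIs (11.9% of venous UMIs there), held 134 of 389 Selp UMIs, 43 of 52 Prl2c5 UMIs and 34 of 68 Csmd1 UMIs. Glycam1 had 70 UMIs in 6 venous cells and 7 UMIs in other cells of the STK25 wKO library, and 266 UMIs in 4 venous cells and 5 UMIs in other cells of the WT library. Of the 271 Glycam1 UMIs of the WT library, 203 lay in 1 cell of 1318 UMIs that had only 4 UMIs of the rule genes. Without the 1 cell of each library that held most of each gene, Cxcl9 in venous over other cells of the STK25 wKO library had a log2 ratio of 0.29, with 1 CPM added.

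Between the libraries, 162 of 6979 genes (2.32%) were higher in all members of the STK25 wKO library by a log2 ratio of at least 1, and 196 (2.81%) were lower, with a median over all genes of −0.05. Of the 26 endothelial identity genes, 0 were past the fold in either direction, 18 lay above 0 and 8 below, and the median was 0.09. None were past the fold either among VEGF and angiopoietin receptors with related genes such as Vegfa and Rapgef5 (11 genes, 0 past the fold, median −0.17). The same held for Notch genes (13 genes, 0 past the fold, median −0.13) and junction genes (18 genes, 0 past the fold, median −0.07). It also held for immediate early and heat shock genes (20 genes, 0 past the fold, median 0.04). Venous genes had a median of −0.02 and arterial genes of −0.15.

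Genes of sprouting vessels lay mostly above 0. Of 18 measured genes of the tip cell list, 14 lay above 0 and 4 below, the median was 0.59, and 2 were past the fold on the higher side (Apln and Lxn) and 1 on the lower (Adm). The list summed to 8392 and 5412 CPM in members of the STK25 wKO and WT libraries. It was also higher in lymphatic comparison cells, at 3414 and 1957 CPM, and in fibroblasts, at 4715 and 4074 CPM. In B cells it was at 370 and 360 CPM. Sparc, Col4a1 and Col4a2 belong both to this list and to the basement membrane list. By their levels given below, these genes made up most of the sum in members of each library and most of the difference between the libraries. Members with at least 2 UMIs of Apln, Esm1, Angpt2 and Pgf together were 13.9% (10.9 to 17.5) in the STK25 wKO library and 10.5% (6.77 to 15.3) in the WT library. Apln, the gene for the tip cell peptide apelin, had 103 UMIs in 37 cells of the STK25 wKO library and 8 UMIs in 6 cells of the WT library, or 63.8 and 10.6 CPM, a log2 ratio of 2.59 (1.56 to 3.84). It had a UMI in 0 B cells of either library. Of its UMIs, 57 of 103 lay in 15 venous cells of the STK25 wKO library and 3 of 8 in 2 venous cells of the WT library, and Apln was higher in venous than in other cells past the fold in both libraries, at 122 and 40.1 CPM in the STK25 wKO library and 27.1 and 7.73 CPM in the WT library, where the interval of the ratio included 0. Between the libraries its ratio was 2.17 (0.55 to 4.49) in venous cells, on 3 UMIs in the WT library, and 2.37 (1.05 to 4.06) in other cells. Esm1, a proteoglycan gene of tip cells, was at 201 and 115 CPM, a ratio of 0.80 (0.46 to 1.16), and Angpt2, which encodes the TIE2 ligand angiopoietin-2, was at 49.5 and 25.1 CPM, a ratio of 0.98 (0.25 to 1.79). Adm, the gene for adrenomedullin, was at 14.2 and 44.9 CPM, a ratio of −1.66 (−2.49 to −0.85).

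Genes of the basement membrane included some with many UMIs, so that their ratios had narrow intervals. Sparc, which encodes a collagen-binding matrix protein, was at 2681 CPM in the STK25 wKO library and 1467 CPM in the WT library, a log2 ratio of 0.87 (0.77 to 0.97), with 0.66 (0.44 to 0.88) in venous and 0.89 (0.78 to 1.00) in other cells. After thinning each cell to 1000 UMIs, 65.1% and 47.4% of members had a Sparc UMI, against 2.42% and 2.02% of B cells. Col4a1, a chain of collagen IV, was at 2259 and 1411 CPM, a ratio of 0.68 (0.58 to 0.78), its partner Col4a2 was at 1488 and 931 CPM, and Igfbp7, a secreted protein of vessel walls, was at 9442 and 6355 CPM, a ratio of 0.57 (0.52 to 0.62). Of the 21 measured genes of the list, 15 lay above 0 and 6 below, with a median of 0.18, and only Fn1, the gene for fibronectin, was past the fold, at 260 and 120 CPM.

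Thbs1 and some genes of capillary exchange were also higher in the STK25 wKO library. Thbs1, the gene for thrombospondin-1, was at 561 CPM in the STK25 wKO library and 273 CPM in the WT library, a log2 ratio of 1.04 (0.82 to 1.26). Car4, a carbonic anhydrase of capillaries, was at 67.5 and 23.8 CPM, a ratio of 1.51 (0.78 to 2.31), Gpihbp1, which anchors lipoprotein lipase, at 292 and 148 CPM, a ratio of 0.98 (0.68 to 1.29), and Aqp1 at 562 and 287 CPM, a ratio of 0.97 (0.76 to 1.19). Of 11 capillary genes, 9 lay above 0 and 2 below, the median was 0.31, Car4 was past the fold on the higher side and Btnl9 on the lower, at 22.9 and 51.5 CPM.

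Interferon and class I histocompatibility genes lay mostly above 0. Of 20 interferon response genes, 15 lay above 0 and 5 below, with a median of 0.42, and Gbp2 and Ifit1 were past the fold. Gbp2, an interferon-induced GTPase, was at 134 CPM in the STK25 wKO library and 46.2 CPM in the WT library, a log2 ratio of 1.53 (1.01 to 2.09). In the other cells alone, 0 of 18 interferon genes were past the fold and the median was 0.21. Of 10 class I genes, 9 lay above 0, 0 were past the fold and the median was 0.33, or 0.26 in the other cells. Both lists were higher in fibroblasts and lymphatic comparison cells of the STK25 wKO library too, while B cells of the libraries were closer. The interferon list summed to 5661 and 4008 CPM in members, 5110 and 3194 CPM in fibroblasts and 7514 and 5913 CPM in lymphatic comparison cells. The class I list summed to 5504 and 4137 CPM in members, 4282 and 2872 CPM in fibroblasts and 6867 and 5626 CPM in lymphatic comparison cells. In B cells of the STK25 wKO and WT libraries the interferon list was at 2296 and 2007 CPM and the class I list at 3662 and 3437 CPM. In the STK25 wKO library 1 venous cell held 598 of 3241 venous UMIs of the interferon list, and 1 held 529 of 2680 of the class I list. B2m, the common light chain, was at 1659 and 1058 CPM, a ratio of 0.65 (0.53 to 0.76), and was found in 88.1% and 83.1% of members and 87.2% and 62.5% of B cells.

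**Figure D5:**
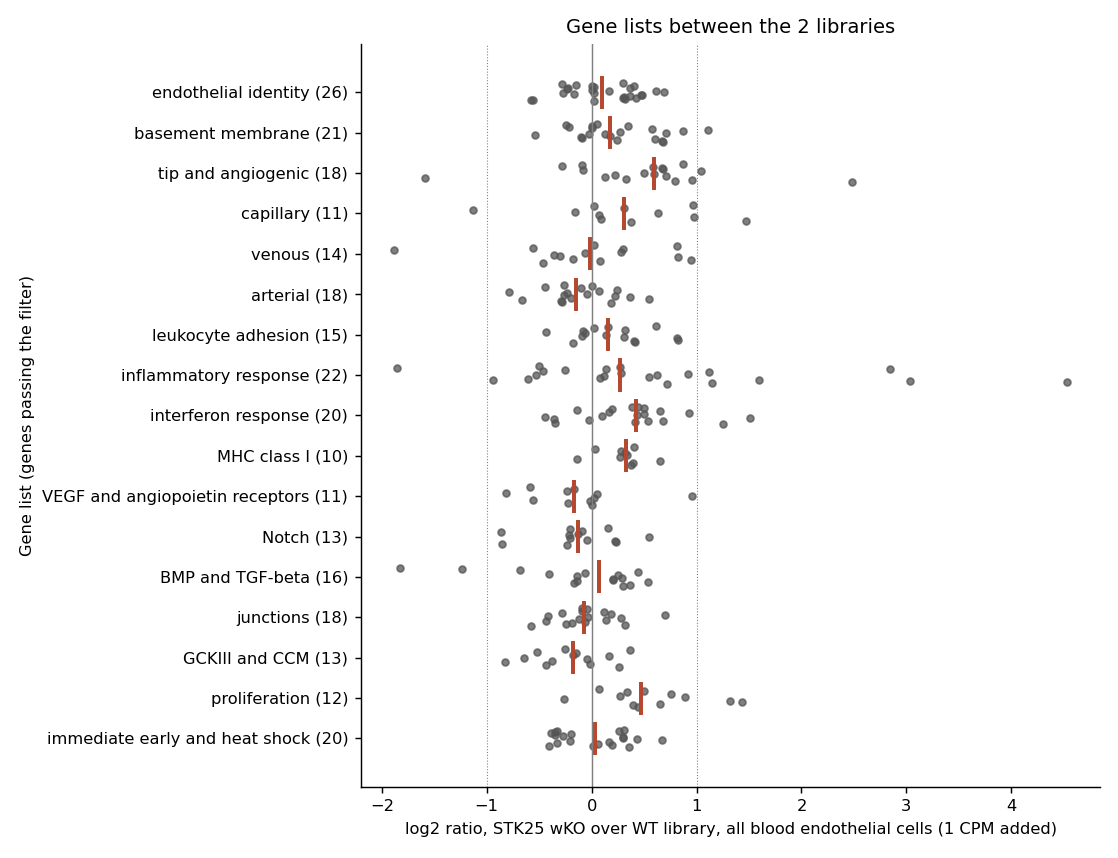
Log2 ratio of the STK25 wKO library to the WT library in all blood endothelial cells, with 1 CPM added, for the genes of 17 lists that passed the filter (1 dot per gene, number of genes in brackets, red bar at the median). Dotted lines mark a log2 ratio of 1 in size. The tip and angiogenic list has the highest median, 0.59, and the endothelial identity genes lie between the dotted lines.

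Of 22 inflammatory response genes, 6 were past the fold on the higher side in the STK25 wKO library (Cxcl2, Cxcl9, Cxcl10, Il6, Cebpb and Ptgs2) and 1 on the lower (Il6ra), and the median was 0.27. The list summed to 4461 and 3339 CPM in members of the STK25 wKO and WT libraries. It was also higher in lymphatic comparison cells (7069 and 3911 CPM), fibroblasts (4925 and 3588 CPM) and B cells (3089 and 1121 CPM). Il6, the gene for interleukin-6, had 139 UMIs in 62 members of the STK25 wKO library and 21 UMIs in 12 members of the WT library, or 86.1 and 27.7 CPM, with the log2 ratio at 1.63 (0.97 to 2.37), and was found in 1.16% and 0% of B cells. Il6 was thus above background in both libraries. Cxcl2, a neutrophil chemokine gene, had a UMI in 58.8% of members and 60.5% of B cells of the STK25 wKO library, and in 12.8% and 8.93% in the WT library, which is background in the STK25 wKO library. For Cxcl9 the log2 ratio with 1 CPM added was 4.53 over all members and 2.80 without the cell of each library that held the most.

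The genes with the largest excess in the STK25 wKO library were mostly not those of endothelium. S100a9, a neutrophil granule gene, was at 519 CPM in the STK25 wKO library and 22.5 CPM in the WT library, a log2 ratio of 4.53 (3.84 to 5.32), with a UMI in 61.7% and 6.39% of members and in 64.0% and 4.46% of B cells. Retnlg, S100a8, Clec4e, Acod1 and Fcgr3, genes of neutrophils and macrophages, and Zg16 and Fcgbp, genes of goblet cells, were also among the 15 largest. Ccl24 had 219 UMIs in 11 members of the STK25 wKO library and 1 UMI in the WT library, a ratio of 6.68 (4.19 to 11.99), and 144 of the 219 lay in 1 cell with 4 rule UMIs. Among members with at least 6 rule UMIs its log2 ratio, with 1 CPM added, was 2.83 against 5.88 over all members. These genes moved with the neutrophil list, and its part in them was not tested.

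The largest deficits in the STK25 wKO library were shared between lymphocyte genes and a few genes of vessels. Skap1, a T cell adaptor gene, had 6 UMIs in 6 members of the STK25 wKO library and 96 UMIs in 34 members of the WT library, a log2 ratio of −5.09 (−6.57 to −3.92). Grap2, Ikzf1, Aff3, Lef1, Satb1, Dock2 and Arhgap15, which are known from lymphocytes, were also among the 15, and the T cell list was lower in the same direction. Cytl1, which encodes a secreted cytokine-like protein, had 27 UMIs in 9 members of the STK25 wKO library and 88 UMIs in 14 members of the WT library, a ratio of −2.80 (−3.48 to −2.16), and no B cell had a UMI of it. Igfbp5, a binding protein of insulin-like growth factors, was at 59.5 and 325 CPM, a ratio of −2.45 (−2.81 to −2.10), but 106 of its 246 UMIs in the WT library lay in 1 cell that also held 4 UMIs of Prox1.

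Among signalling genes, 2 of 16 measured genes of the BMP and TGF-beta list were lower past the fold and 0 higher, with a median of 0.07. Bmp6, a ligand made by endothelium, had 56 UMIs in 37 members of the STK25 wKO library and 63 UMIs in 25 members of the WT library, or 34.7 and 83.2 CPM, a log2 ratio of −1.26 (−1.81 to −0.72). Ltbp1, which stores latent TGF-beta in the matrix, was at 21.7 and 79.2 CPM, a ratio of −1.87 (−2.52 to −1.25). Of 26 transcription factors, only Meis2 was past the fold, at 60.1 and 141 CPM, a ratio of −1.23 (−1.65 to −0.82), and the median of the list was 0.00. Of 12 proliferation genes, 11 lay above 0, Cenpf and Ube2c were past the fold and the median was 0.47. Members with at least 2 UMIs of 8 cycling genes were 6.19% in the STK25 wKO library and 5.94% in the WT library. Of 17 hypoxia and glycolysis genes, 15 lay above 0, with Pgk1 and Gapdh past the fold and a median of 0.22, and Gapdh was also found in 86.0% and 63.4% of B cells.

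STK25 belongs to the GCKIII kinases, which bind the cerebral cavernous malformation protein encoded by Pdcd10, and Klf2 and Klf4 are known to respond to loss of that complex in endothelium. Of 13 measured genes around this complex, 0 were past the fold, 3 lay above 0 and 10 below, and the median was −0.18. Klf2 was at 1416 CPM in members of the STK25 wKO library and 1096 CPM in the WT library, a log2 ratio of 0.37 (0.25 to 0.49), and was also found in 68.0% and 49.1% of B cells. Klf4 was at 367 and 438 CPM, a ratio of −0.26 (−0.45 to −0.06). Ccm2, a scaffold of the complex, was at 39.0 and 70.0 CPM, a ratio of −0.84 (−1.39 to −0.29), Strn3, a striatin of the phosphatase complex that holds these kinases, at 178 and 280.0 CPM, a ratio of −0.65 (−0.91 to −0.39), and Pdcd10 at 103 and 104 CPM, a ratio of −0.01 (−0.41 to 0.39). The sister kinase gene Stk24 was at 90.4 and 122.8 CPM, a ratio of −0.44 (−0.83 to −0.05).

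Within venous cells, 161 of 2208 genes (7.29%) were higher in the STK25 wKO library past the fold and 73 (3.31%) were lower, with a median of 0.05. The WT library had only 29 venous cells and 110680 venous UMIs, so single UMIs there decide many of these. Il1r1 was lower in venous cells of the STK25 wKO library, at 248 against 759 CPM, a log2 ratio of −1.61 (−2.03 to −1.19), and its UMIs were spread over 48 and 19 venous cells. Sele was also lower, at 338 and 759 CPM, a ratio of −1.17 (−1.56 to −0.77), as was Slco2a1, at 668 and 1473 CPM, a ratio of −1.14 (−1.42 to −0.86). Madcam1, at 332 and 361 CPM, had a ratio of −0.12 (−0.63 to 0.42), Icam1, at 553 and 678 CPM, −0.29 (−0.67 to 0.10), and Lrg1, at 855 and 795 CPM, 0.10 (−0.23 to 0.45). These intervals take UMIs as independent, while UMIs of a gene came in clusters within cells: Sele was found in 35 and 10 cells, and 29 of its 84 UMIs in the WT library lay in 1 cell. With 1 library each, whether venous cells of the libraries differ in these genes was not tested.

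Other genes led that comparison from few cells or few UMIs. Lgals9, the gene for galectin-9, had 83 UMIs in 36 venous cells of the STK25 wKO library and 2 UMIs in the WT library, a log2 ratio of 3.30 (1.40 to 6.37), and Nenf, a neurotrophic factor gene, had 64 UMIs in 29 cells and 1 UMI, a ratio of 3.92 (1.39 to 9.25). Rgs5, a gene of pericytes, had 108 UMIs in 5 venous cells and 1 UMI, while S100a9 had 75 and 0 UMIs, at least 5.93-fold higher in the STK25 wKO library. Csf3, Glycam1, Csmd1 and Prl2c5 were lower in venous cells of the STK25 wKO library, and 1 cell of the WT library held much of each as described. Without members that held a Prox1 or Lyve1 UMI the direction turned for Csf3, to 2.46, and for Prl2c5, to 4.88, on the log2 scale with 1 CPM added, Csmd1 had a ratio of 0, and Glycam1 was still lower, at −3.69. Sulf1, a heparan sulphate editing enzyme, had 34 UMIs in 15 venous cells of the STK25 wKO library and 31 UMIs in 11 of the WT library, or 72.8 and 280.1 CPM, a ratio of −1.94 (−2.69 to −1.19).

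Within the other cells, 153 of 6032 genes (2.54%) were higher in the STK25 wKO library past the fold and 178 (2.95%) were lower, with a median of −0.06. The leading genes were those of all members: S100a8, S100a9, Retnlg, Acod1, Clec4e, Ccl24, Zg16 and Fcgbp on the higher side, and Skap1, Grap2, Ikzf1, Aff3, Arhgap15, Cytl1, Cp and Dapk1 on the lower. Cp, the gene for the copper carrier ceruloplasmin, had 26 UMIs in 12 other cells of the STK25 wKO library and 103 UMIs in 25 other cells of the WT library, a log2 ratio of −2.81 (−3.49 to −2.18). The neutrophil list stood at 1851 and 198 CPM in these cells and the T cell list at 31.4 and 173 CPM.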

How the data were processed

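The authors deposited unnormalised UMI counts of genes in barcodes for 2 libraries of 10x Chromium 3′ chemistry. Per the file headers they come from Cell Ranger 7.1.0, and the submitters' processing notes also name Seurat and mm10. The tables list 32285 genes. Members held 1614705 UMIs in the STK25 wKO library and 757144 in the WT library. UMIs were summed over cells and given per 1000000 UMIs (CPM). Single-gene log2 ratios have no pseudocount and exact conditional binomial intervals, levels exact Poisson intervals and shares Clopper-Pearson intervals, and intervals for ratios of shares combine the Clopper-Pearson bounds on the log scale. Counts past the fold, lists and ranks use log2(CPM + 1). In the venous and other comparisons, the same minimum of 50 UMIs and 20 CPM was applied in those cells.

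The members and the 34 gene lists were chosen with earlier results of these data known. Genes were named by size, up to 15 per direction in all members and in venous over other cells and 8 within venous and within other cells, with 4 per list by UMIs, the rule genes and Stk25. Other genes, among them the list members past the fold, were named after their values were seen. B cells gauged RNA from outside the cells. They held at least 2 UMIs of their markers, 0 UMIs of the 7 endothelial rule genes, Cd3e and Csf3r, and fewer than 12 epithelial UMIs. Low counts of endothelial genes in them were thus partly set by this choice. Lymphatic cells failed the lymphatic condition alone. Fibroblasts held at least 10 UMIs of Dcn, Col3a1 and Col1a2 together and fewer than 2 UMIs of the endothelial rule genes. They also held fewer than 12 epithelial UMIs and 0 UMIs of the immune genes of the rule.

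Doublets were not removed. Scrublet's automatic threshold marked 0% of cells, so the 1542 and 1204 highest scores were removed as an alternative. The other alternatives were stricter cell filters and rule limits, thinning to 1000 UMIs, another pseudocount, scaling by the median of ratios, the mean of the CPM of single cells and a looser gene filter. After the data were seen, leaving out members with a Prox1 or Lyve1 UMI and leaving out the cell with most UMIs of each gene were added. The steps were tested on simulated counts. Python 3.11.15, numpy 2.4.6, scipy 1.17.1, pandas 2.3.3, scanpy 1.11.5, scikit-learn 1.9.0 and matplotlib 3.10.9 were used. Promoters came from RefSeq. One gene is not reported here.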

Additional observations from a re-analysis of the deposited data

Results flagged for a closer look

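A few genes differed in direction between venous and other cells when the STK25 wKO library was set over the WT library, with intervals of the log2 ratio that lay on opposite sides of 0. The difference itself was not tested, and each group was 1 library. In venous and in other cells the log2 ratio was 1.34 and −0.29 for Cd74, 1.09 and −0.60 for Clu, −0.32 and 0.25 for Fabp4, 3.35 and −0.41 for H2-Eb1, 2.73 and −1.35 for Nts and 4.68 and −0.82 for Rgs5. H2-Eb1, Nts and Rgs5 each had 1 UMI in venous cells of the WT library, Nts came from 2 venous cells of the STK25 wKO library and Rgs5 from 5. One other cell of the WT library, with only 4 rule UMIs, held 220 of 565 Cd74 UMIs and 62 of 158 H2-Eb1 UMIs of members there. Another, with 12371 UMIs, held 164 of 356 Rgs5 UMIs and 23 of 44 Nts UMIs. In the STK25 wKO library, single other cells held 124 of 1008 Cd74 UMIs and 61 of 253 H2-Eb1 UMIs.

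Venous over other cells, Nts had a log2 ratio of 1.20 in the STK25 wKO library and −2.88 in the WT library, and Retnlg −1.73 and 4.13. Nts had 1 venous UMI and Retnlg 3 venous UMIs in the WT library, and the differences were not tested.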

How the results depend on the processing

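No paired analysis was possible because there was 1 library per group. Depth sets the precision: the WT library had 29 venous cells, so venous counts there often rest on 1 cell, and counting intervals do not cover differences between tumours or mice. The blood endothelial share in the STK25 wKO and WT libraries was 3.99% and 2.43% for cells of 500 genes or more and no more than 10% mitochondrial UMIs, 2.76% and 1.34% with at least 6 rule UMIs, 1.94% and 1.45% with fewer than 4 epithelial UMIs, and 3.89% and 2.55% among cells of at least 1000 UMIs. The venous share of the STK25 wKO library was 14.2% after thinning.

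Genes past the fold between the libraries numbered 162 higher and 196 lower, and between venous and other cells 108 higher and 275 lower. With cells thinned to 1000 UMIs (2451 genes tested) these counts were 81, 68, 50 and 80. With at least 20 UMIs and no CPM minimum (9819 genes) they were 371, 447, 170 and 598. With 10 CPM added, 92 were higher and 118 lower between the libraries and 151 lower in venous cells, and with fewer than 4 epithelial UMIs 175 were lower in venous cells.

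Of 3428 values of single genes under an alternative, 3078 stayed on the same side and close to the value given, 340 moved and 10 reversed. For the STK25 wKO over the WT library, with 1 CPM added, Pax5 was at 0.27 with at least 6 rule UMIs, and after thinning Slit3 was at 0.16 and Abhd17a in venous cells at −1.52. Without members that held a Prox1 or Lyve1 UMI, Csmd1 was at 2.001 and Prl2c5 at 2.96 in all members, and Csf3 at 2.46, Cxcl9 at −2.95 and Prl2c5 at 4.88 in venous cells. In venous over other cells, Cxcl9 was then at −2.35 in the STK25 wKO library and Pde1c at −2.22 in the WT library. Those members include the deepest venous cell of each library, and the cause of the reversals was not tested.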
